A study of Mus musculus with 19 samples.

Results

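The arrays described here compared embryonically derived Kupffer cells (em-KCs), the resident macrophages (mφs) of the liver, from KC-DTR knock-in mice and from their wild-type littermates. They were chosen by their titles, which name em-KCs of a KC-DTR mouse or of its wild-type littermate, and are 8 of the 19 arrays of the series. The KC-DTR group held 3 arrays from mice that had received no diphtheria toxin (DT). The littermate group held 5 arrays, of which 1 came from a mouse without DT, 2 from mice 15 days and 2 from mice 30 days after 50 ng of DT. All mice were C57Bl/6 and between 6 and 12 weeks of age.

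KC-DTR mice carry a cassette in the 3′ untranslated region of Clec4f that encodes an internal ribosome entry site, YFP, a 2A peptide and the human DT receptor. The allele was made in C57BL/6N embryonic stem cells and backcrossed to C57Bl/6. The littermates lack the cassette, and whether KC-DTR mice carried it on 1 or both chromosomes is not given in the sources used here. Cells were sorted as positive for CD45, Clec4F and the product of Adgre1, intermediate for CD11b, and negative for Ly6C, Ly6G and SiglecF. Of the 5 littermate arrays 4 followed DT and none of the KC-DTR em-KC arrays did, so genotype and DT cannot be told apart there, and the comparison without DT on either side rests on 1 littermate array. Arrays of 1 group are labelled as biological replicates with nothing said of separate mice, so p-values measure only the spread between these samples. In bulk sorted cells, fewer cells of a type and less RNA per cell cannot be told apart.

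DT enters a cell by binding the membrane form of heparin-binding EGF-like growth factor, the product of Hbegf, and then inactivates elongation factor 2, which stops protein synthesis. The mouse form of the receptor binds the toxin poorly, so mouse cells are normally spared, and a human receptor placed under a cell type's own gene makes that cell type sensitive. Clec4f encodes a C-type lectin that in mice marks KCs. A cassette placed behind the coding sequence leaves the lectin's reading frame whole but lengthens its transcript, and untreated knock-in cells and DT-treated littermates are the controls for the allele and for the toxin.

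Clec4f and its neighbour Cd207 are the genes in which the allele and the level of nearby transcripts are read first, and the 250 bases before the start of each are shown for that reason (RefSeq, GRCm38.p6). Both lie on the minus strand, the window of Clec4f at chr6:83656117-83656366 and that of Cd207 at chr6:83677858-83678107, with 21.5 kb between them. Capitals mark matches on either strand to the ETS-type site GAGGAA, the AP-1 site TGANTCA and the TATA box TATAAA. Shorter or other forms of these sites were not searched.

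Clec4f: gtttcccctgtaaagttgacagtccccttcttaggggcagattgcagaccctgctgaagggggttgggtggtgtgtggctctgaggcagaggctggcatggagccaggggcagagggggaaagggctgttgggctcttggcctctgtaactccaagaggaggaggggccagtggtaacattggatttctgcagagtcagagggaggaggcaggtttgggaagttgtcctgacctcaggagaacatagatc
Cd207: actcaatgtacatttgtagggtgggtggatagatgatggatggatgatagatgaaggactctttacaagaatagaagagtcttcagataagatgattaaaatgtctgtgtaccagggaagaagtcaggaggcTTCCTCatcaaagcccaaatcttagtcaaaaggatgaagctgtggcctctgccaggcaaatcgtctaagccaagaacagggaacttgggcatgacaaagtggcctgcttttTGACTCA

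The window of Clec4f held no match to these motifs as written. That of Cd207 held 1 match to GAGGAA on the opposite strand, from base -118 to -113, and 1 to the AP-1 site, from -7 to -1. The matches do not overlap. Among 32851 windows of the same length, 23.3% held GAGGAA, 6.7% the AP-1 site and 12.4% the TATA box. GC content was 57.2% for Clec4f and 43.6% for Cd207, against a median of 52.4%.

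The 8 profiles were close to one another. Correlations over 19938 genes ran from 0.991 to 0.992 within KC-DTR em-KCs, from 0.991 to 0.994 within littermates and from 0.991 to 0.992 between them. KC markers were high on all 8 arrays, with Vsig4, a complement receptor, at 12.82 to 12.99, Cd5l, a secreted scavenger protein, at 12.59 to 12.69 and Timd4, a receptor for apoptotic cells, at 11.70 to 12.02 (log2). Xist, which is transcribed from the inactive X chromosome of females, lay at 4.11 to 4.53 and the Y-linked gene Eif2s3y at 7.53 to 7.99, so all 8 arrays had the same pattern of sex-linked transcripts.

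No gene passed the threshold between KC-DTR and littermate em-KCs. With limma and Benjamini-Hochberg adjustment over 19938 genes, 0 genes had an adjusted p under 0.05, which is 0% of all genes, and the smallest adjusted p was 0.112. At an unadjusted p under 0.05 there were 1543 genes, 573 higher in KC-DTR em-KCs (2.87% of all genes) and 970 lower (4.87%), and the methods' t-test gave 1499, of which 0 passed Benjamini-Hochberg or Bonferroni adjustment. All 3 KC-DTR arrays lay above all 5 littermate arrays for 380 genes (1.91%) and below them for 711 (3.57%).

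Most genes could be placed within a narrow range. For 18730 genes (93.9%) the 95% confidence interval of the difference stayed inside 1.5-fold in both directions, and the median half-width over all genes was 0.22 (log2). The measured difference was at least 1.5-fold for 53 genes and at least 2-fold for 4, none of which passed. These 4, named after their values were seen, were the microRNA genes Mir505 (1.19) and Mir340 (1.10), the platelet chemokine gene Ppbp (1.04) and the hyaluronidase gene Spam1 (1.01). In Mir505, Mir340 and Spam1 the arrays of the groups overlapped. Over the 2991 most variable genes, arrays of different groups were 25.0 apart on average (Euclidean, log2) and arrays of the same group 24.1, a gap of 0.902 (exact permutation test, one-sided, p = 0.0893 over 56 splits, where the smallest possible p is 0.0179). The gap depended on single arrays. It was 0.744 without KC-DTR replicate 3 (exact permutation p = 0.238) and 1.28 without KC-DTR replicate 2 (exact permutation p = 0.0952). It was 0.320 without littermate day 30 replicate 2 (exact permutation p = 0.257) and 0.614 without littermate day 15 replicate 1 (exact permutation p = 0.200). Without littermate day 30 replicate 1 it was 1.52 (exact permutation p = 0.0286, the smallest that 3 against 4 arrays allow).

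**Figure D1:**
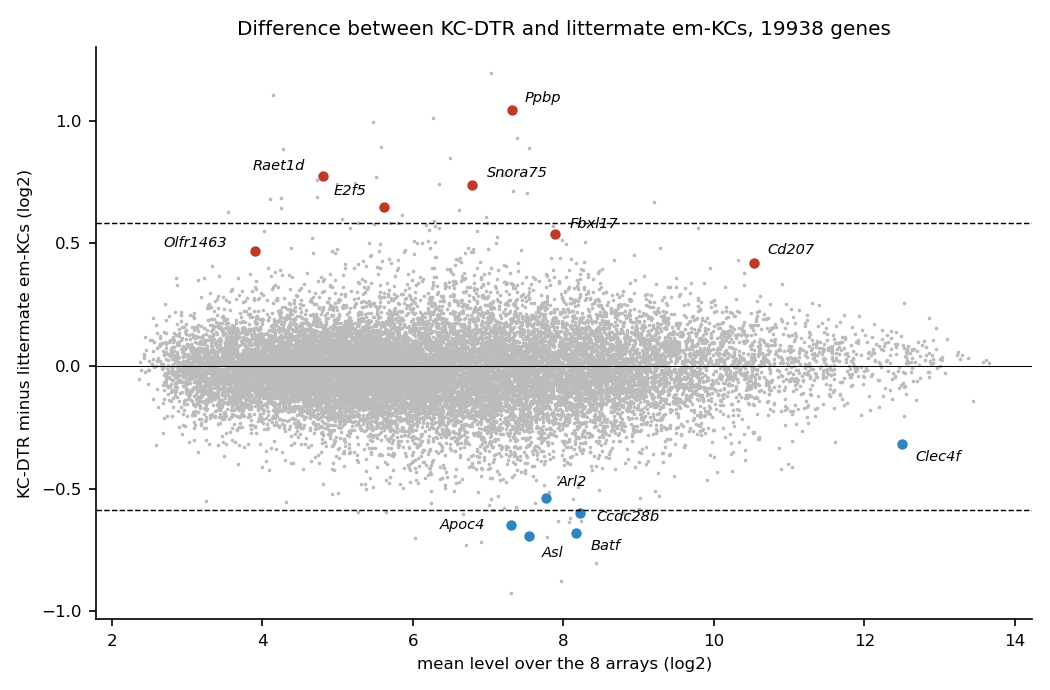
Each point is 1 gene, with its mean level over the 8 arrays (log2, horizontal) against KC-DTR minus littermate em-KCs (log2, vertical), and dashed lines at 1.5-fold. Of 19938 points 53 lie beyond the dashed lines, no gene passed the adjusted threshold, and Clec4f, at the right, lies at -0.32.

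The genes of smallest p on the lower side were Apoc4, Arl2, Asl, Ccdc28b and Batf. Apoc4, an apolipoprotein gene of the liver, was 6.95, 6.94 and 6.79 in KC-DTR em-KCs, 7.45 in the littermate without DT, 7.60 and 7.48 at day 15 and 7.63 and 7.56 at day 30. The groups did not overlap, and the difference was -0.65 (standard error 0.08, limma adjusted p = 0.112).
Arl2, a small GTPase gene of tubulin folding, was 7.46, 7.47 and 7.35 against 7.96 in the untreated littermate and 7.93 to 8.04 after DT. Its groups did not overlap either, and the difference was -0.54 (standard error 0.07, limma adjusted p = 0.112). Asl, which encodes argininosuccinate lyase of the urea cycle and arginine synthesis, was 7.07 to 7.16 in KC-DTR em-KCs and 7.60 to 7.94 in littermates, a difference of -0.69 (limma adjusted p = 0.112). Ccdc28b, a coiled-coil protein gene, differed by -0.60 and Batf, a transcription factor gene of the AP-1 family, by -0.68 (limma adjusted p = 0.132 and 0.160), with all KC-DTR arrays below all littermates. In each of these 5 genes the untreated littermate lay with the DT-treated ones.

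On the higher side were Snora75, E2f5, Raet1d, Olfr1463 and Fbxl17. Snora75, a small nucleolar RNA that guides modification of other RNAs, was 7.40, 7.16 and 7.20 in KC-DTR em-KCs, 6.66 in the untreated littermate and 6.24 to 6.62 after DT, with no overlap and a difference of 0.74 (standard error 0.11, limma adjusted p = 0.132). E2f5, a transcription factor gene of the E2F family, was 5.83 to 6.15 against 5.26 to 5.57, a difference of 0.65 (limma adjusted p = 0.160). Raet1d, which encodes a stress ligand for the NKG2D receptor of natural killer cells, was 5.03 to 5.42 against 4.20 in the untreated littermate and 4.42 to 4.82 after DT, a difference of 0.77. The olfactory receptor gene Olfr1463 and Fbxl17, an F-box gene of a ubiquitin ligase, differed by 0.47 and 0.54, and for Raet1d, Olfr1463 and Fbxl17 the limma adjusted p was 0.262. All 5 were above the littermates on every KC-DTR array.

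**Figure D2:**
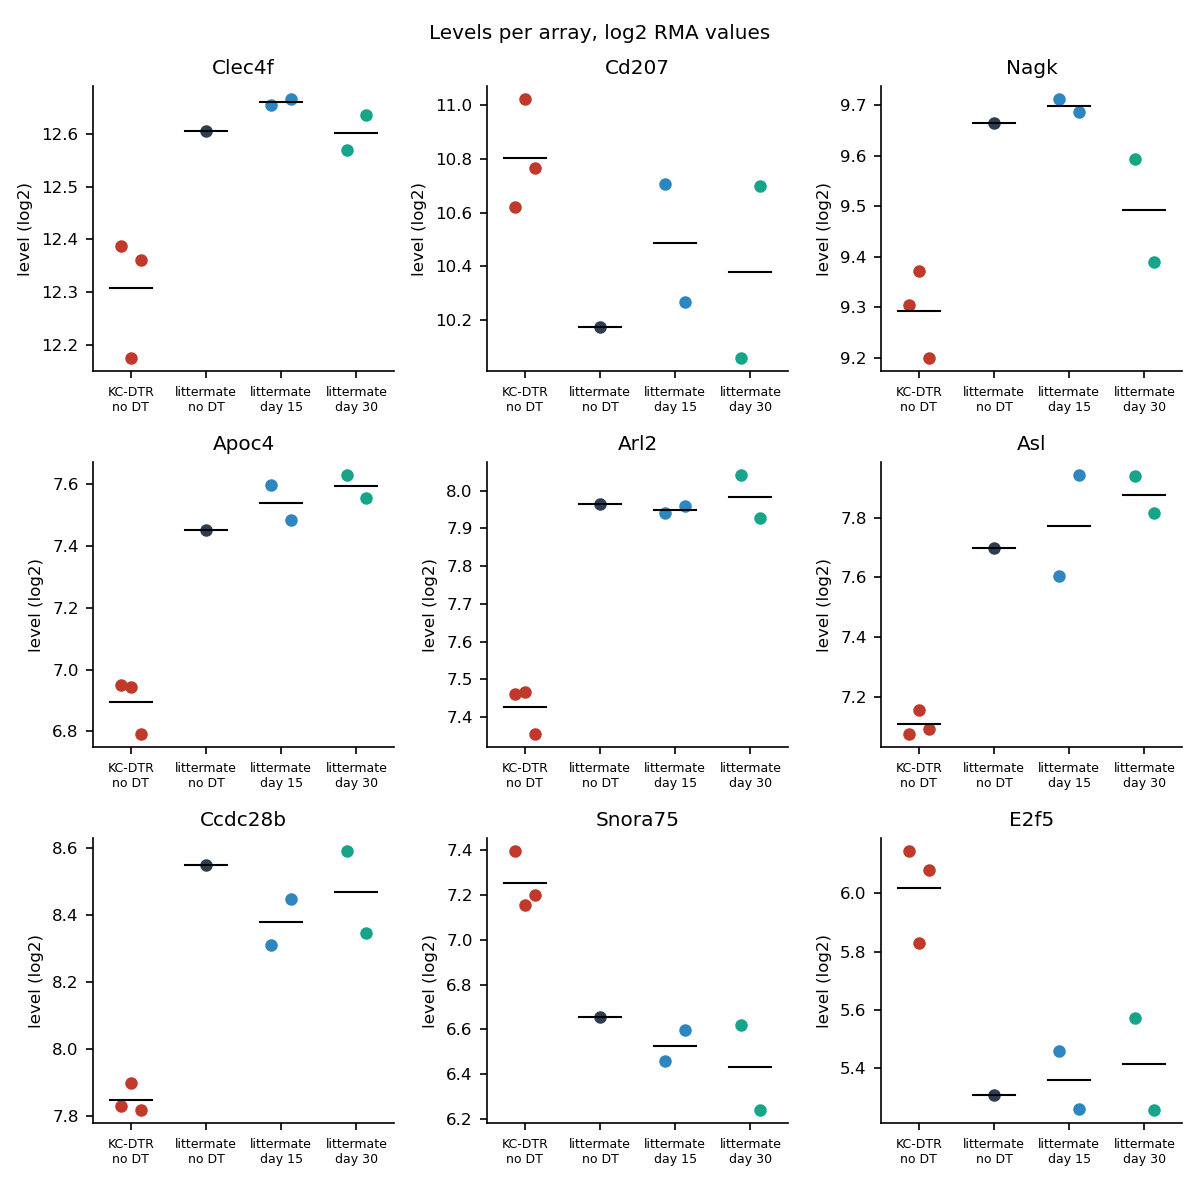
Level per array (log2, vertical, with a separate range in each panel) of 9 genes in KC-DTR em-KCs without DT (3 arrays) and in littermates without DT (1), at day 15 (2) and at day 30 (2), with bars at the group mean. Cd207 overlaps between KC-DTR and littermates and the other 8 genes do not.

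Clec4f, which carries the cassette, was 12.39, 12.17 and 12.36 in KC-DTR em-KCs, 12.61 in the untreated littermate, 12.66 and 12.67 at day 15 and 12.57 and 12.64 at day 30. All 3 KC-DTR arrays lay below all 5 littermates, and the means were 12.31 ± 0.12 (SD, n = 3) and 12.63 ± 0.04 (SD, n = 5). The difference was -0.32 with a 95% confidence interval of -0.49 to -0.15, a level 1.25-fold lower (limma unadjusted p = 0.00176, adjusted p = 0.414), so it did not pass over all genes. Levels of YFP and human DT receptor, and the place of the Clec4f probes relative to the cassette, were not analysed here.

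Cd207, which encodes langerin, a lectin best known from Langerhans cells, was 10.62, 11.02 and 10.77 in KC-DTR em-KCs. It was 10.18 in the untreated littermate, 10.71 and 10.27 at day 15 and 10.06 and 10.70 at day 30. The KC-DTR arrays overlapped with 1 littermate of each day. The difference was 0.42 with an interval of 0.06 to 0.78 (limma adjusted p = 0.565).

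Of 109 measured genes within 5 Mb of Clec4f, 0 passed. At an unadjusted p under 0.05, 5 were higher and 10 lower, against 2.87% and 4.87% of all genes. Their median difference was -0.04 against -0.02 over all genes. The groups did not overlap for 2 higher genes, Gp9 and Gfpt1, and for 7 lower ones, Clec4f, Nagk, Aup1, Mxd1, Rab7, Gata2 and Ruvbl1, where the shares over all genes were 1.91% and 3.57%. Nagk, which encodes N-acetylglucosamine kinase and starts 0.15 Mb from Clec4f, was 9.31, 9.37 and 9.20 in KC-DTR em-KCs, 9.66 in the untreated littermate and 9.39 to 9.71 after DT, a difference of -0.32 (limma adjusted p = 0.485). Between Cd207 and Nagk in distance, Vax2, Atp6v1b1, Stambp, Ankrd53, Tex261, Actg2 and LOC665004 had an unadjusted p between 0.126 and 0.959.
The neighbours were named after their values were seen. Rab7, a GTPase gene of late endosomes 4.35 Mb away, was 10.88 to 11.00 against 11.14 to 11.20, a difference of -0.24 (limma adjusted p = 0.489). Gata2, a haematopoietic transcription factor gene, differed by -0.28 and Mxd1, a MYC antagonist, by -0.31. On the whole of chromosome 6, 6.92% of 1099 genes had an unadjusted p under 0.05, against 7.74% of all genes.

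**Figure D3:**
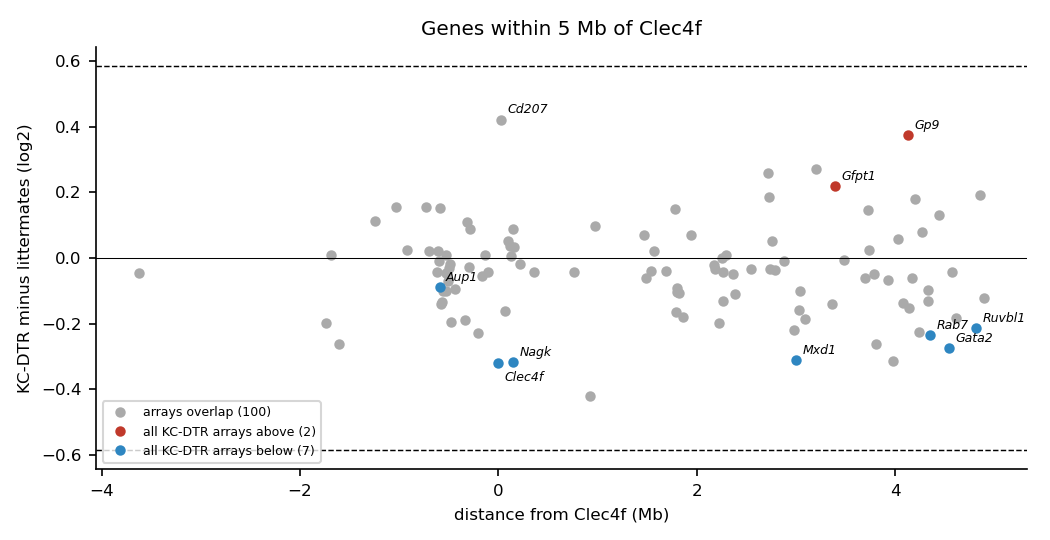
Difference between KC-DTR and littermate em-KCs (log2, vertical) of 109 genes against their distance from Clec4f (Mb, horizontal), coloured by whether the arrays of the groups overlapped, with dashed lines at 1.5-fold. Clec4f and Nagk lie at -0.32 and Cd207 at 0.42, and the dashed lines enclose every point.

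Genes of KC identity were alike in both groups. Of 37 measured members, 34 had an interval within 1.5-fold, the median difference was 0.01, and only Cd207 and Clec4f had an unadjusted p under 0.05. On every KC-DTR array 1 member lay above all littermates and 3 lay below, against 1.91% and 3.57% of all genes. Their mean level was 11.42 to 11.53 in KC-DTR em-KCs and 11.39 to 11.55 in littermates. Among 19 transcription factors of KCs and mφs, 16 had such an interval. At an unadjusted p under 0.05, 3 were lower and 0 higher, against 4.87% and 2.87% of all genes. Nr1h3, the liver X receptor alpha gene, was 10.52, 10.26 and 10.27 in KC-DTR em-KCs and 10.55 to 10.69 in littermates, and Spi1, which encodes PU.1, was 10.89, 11.09 and 11.05 against 11.14 to 11.41. Neither overlapped, and both differed by -0.27 (limma adjusted p = 0.509 and 0.542).
Of the other sort antigens, Ptprc, the CD45 gene, differed by 0.02 (interval -0.16 to 0.20) and Adgre1, a mφ adhesion receptor gene, by 0.12 (interval -0.04 to 0.27), with all KC-DTR arrays above the littermates. Itgam, the CD11b gene, was 8.32, 7.68 and 7.57 in KC-DTR em-KCs and 7.34 to 8.27 in littermates, a difference of 0.21 whose interval of -0.29 to 0.70 went beyond 1.5-fold.

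Genes of DT entry and of its target differed little. All 12 measured members had an interval within 1.5-fold, and 0 had an unadjusted p under 0.05. Hbegf, the mouse receptor gene, was 9.05, 8.76 and 8.52 in KC-DTR em-KCs and 8.29 to 8.89 in littermates, a difference of 0.13 (interval -0.20 to 0.46). Cd9, a tetraspanin that binds the receptor, differed by 0.02 (interval -0.28 to 0.33) and Eef2, the elongation factor that the toxin inactivates, by -0.09 (interval -0.27 to 0.09). In all 3 genes the groups overlapped.

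No member of the functional lists of KCs passed, and counts are given at an unadjusted p under 0.05. Over all genes 2.87% were higher and 4.87% lower, and the list counts below stand beside these shares. In iron and heme handling 3 of 20 were higher and 1 lower. Tfrc, the transferrin receptor gene, was 8.91, 8.30 and 8.97 in KC-DTR em-KCs, 8.37 in the untreated littermate and 7.95 to 8.17 after DT, a difference of 0.58 in which 1 KC-DTR array lay under the untreated littermate (limma adjusted p = 0.437). Flvcr1, a heme exporter gene, was 8.22 to 8.55 against 7.72 to 8.15, a difference of 0.44 without overlap (limma adjusted p = 0.437). In complement 0 of 19 were higher and 2 lower. Itgax, the CD11c chain of a complement receptor, was 4.66 to 5.10 against 5.21 to 5.91 and differed by -0.60 without overlap, and C9, of the terminal pathway, differed by -0.50 with overlap (limma adjusted p = 0.437 and 0.523).

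Among 31 C-type lectins 1 was higher and 3 were lower, the largest difference being in Cd209b, which was 5.49 to 5.76 in KC-DTR em-KCs and 5.78 to 6.51 in littermates (difference -0.47, limma adjusted p = 0.509). In cholesterol and fatty acid synthesis 2 of 18 were higher, and Idi1, an enzyme of isoprenoid synthesis, differed by 0.44. No member of the liver X receptor list (15 measured), of MHC class II presentation (12 measured) or of genes that vary between C57BL/6 substrains (6 measured) reached an unadjusted p under 0.05 in either direction. Of 16 circadian clock genes 1 was higher and 1 lower, Ciart and Nfil3, with differences of 0.56 and -0.42.

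Interferon-stimulated genes included 1 higher and 4 lower of 23, with a median difference of -0.14. Oas2, an antiviral enzyme, was 8.91, 8.74 and 9.24 in KC-DTR em-KCs and 9.17 to 9.49 in littermates, a difference of -0.36 with overlap (limma adjusted p = 0.542). Inflammatory cytokines and NF-kB targets held 1 higher and 1 lower of 23, and Tnfaip3, an inhibitor of NF-kB signalling, differed by 0.52 with overlap (limma adjusted p = 0.509). Immediate-early genes, which also respond to tissue digestion, held 1 higher and 1 lower of 25, Egr2 being 9.18, 10.33 and 9.35 against 8.16 to 9.41. Hspb1, a small heat shock protein gene, was 6.07 to 6.21 against 6.44 to 6.79 without overlap, a difference of -0.40 (limma adjusted p = 0.404), with 1 higher and 1 lower of 9 heat shock genes, and integrated stress and p53 targets held 0 higher and 2 lower of 16. In the cell cycle list 2 of 28 were higher and 0 lower, with a median of 0.12. Top2a, a topoisomerase of dividing cells, was 7.45 to 7.86 against 6.93 to 7.44 and differed by 0.33 (limma adjusted p = 0.601).

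Markers of other cells did not pass either. Of 55 hepatocyte genes 0 were higher and 5 lower at an unadjusted p under 0.05 (2.87% and 4.87% over all genes), with a median of -0.19. The mean level of the list was 6.85 to 7.16 in KC-DTR em-KCs and 6.84 to 7.53 in littermates. Of the 55 genes 43 measured lower and 12 higher, where 11085 of all 19938 genes measured lower and 8853 higher. Albumin (Alb), among the 12 that measured higher, was 10.22 to 11.08 against 9.76 to 11.38 and differed by 0.05. Apoc4, first among the genes named above, belongs to this list, and its difference was -0.62 with the mean of the hepatocyte list as a covariate (limma adjusted p = 0.241). That covariate holds the level of Apoc4 itself, so the value is not an independent check. For 28 genes of sinusoidal endothelium the counts were 0 and 0, with a mean level of 9.08 to 9.12 and 8.82 to 9.57.
Of 8 measured platelet and erythroid genes 2 were higher. Ppbp was 8.21, 7.73 and 7.98 in KC-DTR em-KCs, 7.73 in the untreated littermate and 6.12 to 7.07 after DT, so the untreated littermate stood next to the KC-DTR arrays and apart from the DT-treated ones. The difference was 1.04 against all littermates (limma adjusted p = 0.437) and 0.24 against the untreated one. Gp9, a platelet glycoprotein gene in the Clec4f region, was 6.03 to 6.37 against 5.99 in the untreated littermate, and all DT-treated littermates lay below both (limma adjusted p = 0.471). Among 17 monocyte genes 0 were higher and 2 lower, the calcium-binding protein gene S100a6 with a difference of -0.72 and the chemokine receptor gene Ccr2 with -0.41, both with overlap (limma adjusted p = 0.437 and 0.563). Of 18 stellate cell and fibroblast genes 2 were higher and 0 lower, of 14 neutrophil genes 1 and 0, of 10 cholangiocyte genes 0 and 1, and of 15 T and NK cell genes 0 and 1. Among 11 B and plasma cell genes and 11 dendritic cell genes the counts were 0 and 0. Lrat, which stores retinol in stellate cells, differed by 0.58, Krt8, a keratin of bile ducts, by -0.43 and Cd8a, a T cell co-receptor gene, by -0.35.

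**Figure D4:**
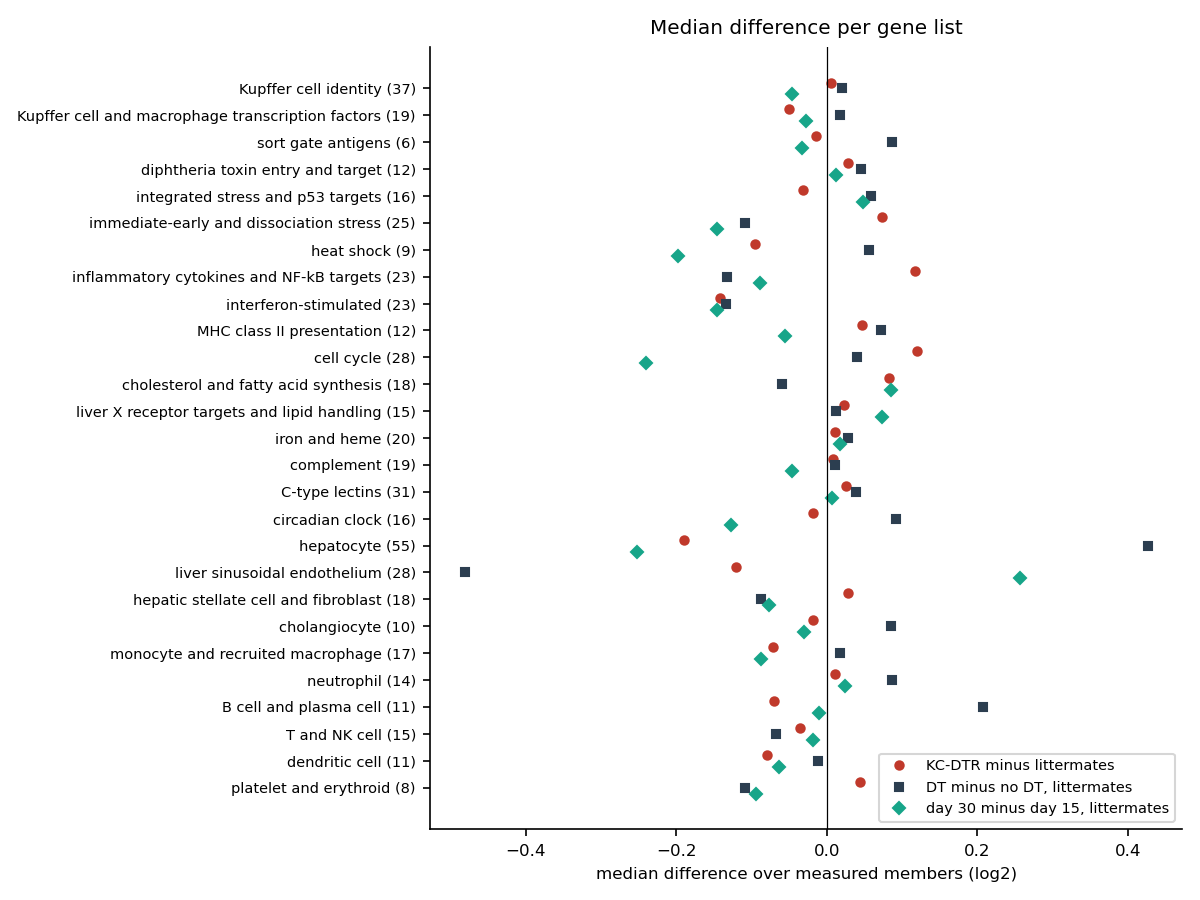
Median difference (log2, horizontal) over the measured members of 27 gene lists (member count in brackets) for KC-DTR minus littermates, DT minus no DT in littermates and day 30 minus day 15 in littermates. KC-DTR medians lie between -0.19 and 0.12, while the hepatocyte and endothelium lists lie at 0.43 and -0.48 for DT minus no DT.

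Compared with the untreated littermate alone, in a fit of the 4 conditions, KC-DTR em-KCs also had 0 called genes (0% of all), with 407 higher (2.04%) and 759 lower (3.81%) at an unadjusted p under 0.05 and a smallest limma adjusted p of 0.391. The interval lay within 1.5-fold for 68.9% of genes, and the lone array was assumed to vary like the other conditions. The genes of smallest p were Spam1, H60b, Raet1d, Pon1 and Gpr183 on the higher side and Rab3b, Saa2, Armcx4, Cxcr2 and Gda on the lower. Spam1 was 6.36, 6.95 and 7.40 in KC-DTR em-KCs, 4.64 in the untreated littermate and 5.87 to 6.47 after DT. H60b, an NKG2D ligand gene like Raet1d, was 7.61 to 7.97, 6.26 and 6.95 to 7.71 in the same order. Cxcr2, a chemokine receptor gene of neutrophils, was 3.83 to 4.10, 4.90 and 4.06 to 4.17. The untreated littermate stood apart from both other sets of arrays in these genes. Clec4f differed by -0.30, as against all littermates, and Cd207 by 0.63 (limma unadjusted p = 0.057 and 0.043).

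Within littermates, which lack the human receptor, DT was compared with no DT. Again 0 genes were called (0% of all), with 394 higher (1.98%) and 523 lower (2.62%) after DT at an unadjusted p under 0.05 and a smallest limma adjusted p of 0.587, and the interval lay within 1.5-fold for 74.7% of genes. Against the same untreated array, day 15 gave 972 and day 30 gave 820 genes at an unadjusted p under 0.05, and 0 passed at either day. The comparison shares its lone untreated array with the one before. Saa2, an acute-phase gene, was 6.32 in the untreated littermate, 4.74 and 4.37 at day 15 and 5.05 and 4.88 at day 30, a difference of -1.55 with an interval of -2.02 to -1.08 (limma adjusted p = 0.587). In KC-DTR em-KCs without DT it was 4.97, 4.48 and 4.85, like the DT-treated littermates. Rab3b, a gene of vesicle secretion, was 7.58 in the untreated littermate, 5.87 to 6.43 after DT and 5.69 to 6.07 in KC-DTR em-KCs, and Armcx4 and Gda, the guanine deaminase gene, differed by -1.06 and -1.09. Ctla2a, which encodes a cathepsin inhibitor, was 8.50 in the untreated littermate, 7.52 to 7.85 after DT and 8.16 to 8.50 in KC-DTR em-KCs, so that both untreated sets lay above the DT-treated one.

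On the higher side were Pon1, Apoc3, Clec9a, Apob and Olfml3. Pon1, a paraoxonase gene of the liver, was 5.05 in the untreated littermate, 6.02 to 6.47 after DT and 5.91 to 6.22 in KC-DTR em-KCs. The apolipoprotein genes Apoc3 and Apob differed by 1.03 and 0.99, and Clec9a, a lectin gene of dendritic cells, by 1.16 (7.38 against 8.31 to 8.82). In KC-DTR em-KCs Apoc3 was 7.82 to 8.18, Apob 6.80 to 6.95 and Clec9a 8.24 to 8.58, above the untreated littermate in each case. None of these genes passed, with a limma adjusted p of 0.587 for Saa2, Rab3b, Armcx4 and Pon1 and 0.634 for the other 6. Of 55 hepatocyte genes 24 were higher and 0 lower after DT, with a median of 0.43. Of 28 endothelial genes 0 were higher and 13 lower, with a median of -0.48. The shares over all genes were 1.98% and 2.62%. The untreated littermate had the lowest mean of the hepatocyte list (6.84) and the highest of the endothelium list (9.57) of the 8 arrays. With the mean of the hepatocyte list as a covariate the difference after DT was 0.73 for Pon1, 0.62 for Apob, 0.50 for Olfml3 and 1.64 for Clec9a, and none of them passed. Apob and Apoc3 belong to that list, so the covariate holds their own levels, and the value of Apoc3 is not given here. Inflammatory and NF-kB genes held 0 higher and 6 lower of 23, with Tnf, a cytokine gene, at 9.16 in the untreated littermate, 7.97 to 8.33 after DT and 8.43 to 9.07 in KC-DTR em-KCs. Of KC identity genes 0 of 37 had an unadjusted p under 0.05, and 31 had an interval within 1.5-fold.

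Between day 15 and day 30 in littermates, 0 genes were called (0% of all), with 338 higher (1.7%) and 417 lower (2.09%) at day 30 at an unadjusted p under 0.05 and a smallest limma adjusted p of 0.860, and the methods' t-test gave 792, of which 0 passed. The interval lay within 1.5-fold for 82.8% of genes. Cd209f and Cd209g, C-type lectin genes of a family whose probes may be shared, had the lower levels at day 30. Cd209f was 9.77 and 10.16 at day 15 and 7.54 and 8.11 at day 30, a difference of -2.14 with an interval of -2.99 to -1.29. In mice without DT it was 8.40 in the littermate and 8.41, 8.68 and 9.71 in KC-DTR em-KCs, so day 15 lay above and day 30 below every untreated array. Cd209g was 6.22 and 6.36 at day 15 and 5.09 and 5.06 at day 30, against 5.24 to 5.87 without DT, a difference of -1.22 (limma adjusted p = 0.860). The limma adjusted p of Cd209f was 1, and 0.0197 with the replicate number as a block. Same-numbered arrays did not deviate together over the most variable genes, which leaves single genes such as Cd209f unsettled.

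On the higher side at day 30, Mecom, a transcription factor gene, was 6.25 and 6.21 against 5.53 and 5.40, and Ldb2, a cofactor gene, was 8.75 and 8.63 against 7.98 and 7.76. Snrnp35, Nrarp and Cd59a differed by 0.73, 0.56 and 0.90. Without DT, Mecom was 5.64 to 5.82, between the days. Cell cycle genes held 0 higher and 6 lower of 28, and all 28 had a lower mean at day 30 than at day 15, where 9365 of 19938 genes were higher. The list's mean was 6.97 and 7.02 at day 15, 6.70 and 6.82 at day 30, 6.82 in the untreated littermate and 6.83 to 7.06 in KC-DTR em-KCs. Hepatocyte genes held 1 higher and 8 lower of 55, and immediate-early genes 0 higher and 4 lower of 25. The shares over all genes were 1.7% higher and 2.09% lower. Ciart, a repressor of the circadian clock, was 6.30 and 6.09 at day 15, 5.72 and 5.36 at day 30, and 6.47 to 6.68 in the 4 arrays without DT. The time of day of sampling is not given in the sources used here.

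**Figure D5:**
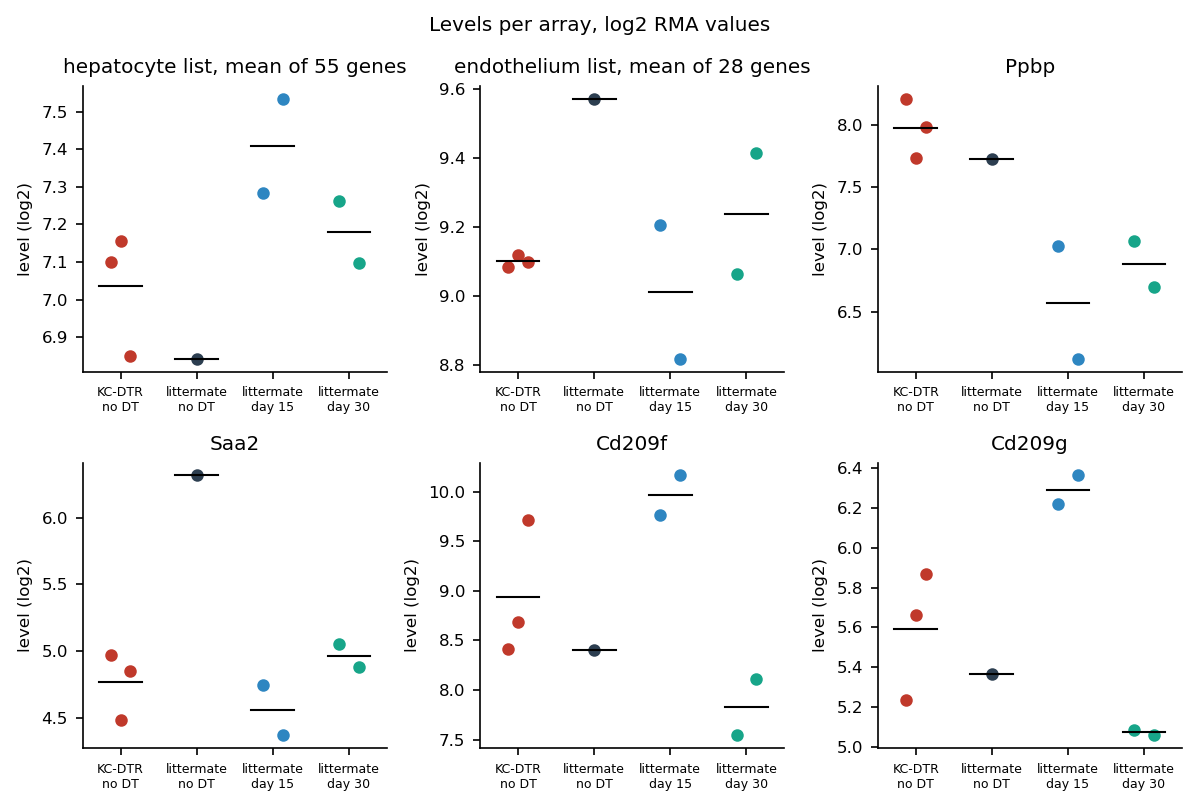
Level per array (log2, vertical, with a separate range in each panel) of the hepatocyte and endothelium list means, Ppbp, Saa2, Cd209f and Cd209g in KC-DTR em-KCs without DT (3 arrays) and littermates without DT (1), at day 15 (2) and at day 30 (2), with bars at the group mean. Saa2 is 6.32 in the untreated littermate and at most 5.05 elsewhere, and Cd209f falls in a higher pair at day 15 and a lower pair at day 30.

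The genes named for the knock-in were also read in the 11 other arrays, of which 8 were from monocyte-derived KCs of KC-DTR mice, which carry the allele, and 3 from WT em-KCs, which do not. The monocyte-derived KCs differ from the 8 arrays in origin, while the WT em-KCs are embryonic too. The 3 WT arrays and 3 of the monocyte-derived ones had other levels of sex-linked genes (list mean 5.31 to 5.41 against 6.52 to 6.96). Their immediate-early list mean was 7.48 to 7.90, against 8.51 to 9.18 in KC-DTR and littermate em-KCs. The hepatocyte list, which holds Apoc4, had a mean of 8.52 to 8.65 on WT arrays and 6.68 to 7.82 on monocyte-derived ones. It was 6.84 to 7.53 in KC-DTR and littermate em-KCs. The values are therefore descriptions. Clec4f lay below the littermate range on 8 of 8 allele-carrying arrays (10.66 to 12.29) and on 2 of 3 WT arrays (12.42 to 12.60). Cd207 lay above it on 8 of 8 (11.45 to 11.94) and on 0 of 3 (10.01 to 10.32).
Arl2 lay below it on 7 of 8 allele-carrying and 1 of 3 WT arrays, and Apoc4 on 4 of 8 and 0 of 3. E2f5 lay above on 6 of 8 but also on 3 of 3, and Batf below on 0 of 8 and 2 of 3. Snora75 lay above on 3 of 8 and 0 of 3. The 3 WT arrays (3.94 to 5.15) lay below its littermate range of 6.24 to 6.66. So did day 30 replicates 3, 4 and 5 of the monocyte-derived KCs (4.10, 5.94 and 5.07), which carry the allele. Among the 13 genes read in this way, only Clec4f and Cd207 lay beyond the littermate range on all 8 monocyte-derived arrays. In KC-DTR em-KCs, which also carry the allele, Cd207 overlapped with littermates. Allele and origin cannot be told apart in the monocyte-derived arrays.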

How the data were processed

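RNA of sorted KCs was hybridised to Affymetrix Mouse Gene ST arrays. The authors deposited log2 values, which Robust Multi-array Average had corrected for background, quantile-normalized between arrays and summarized by probeset. Such values compress differences of dim genes. No version of that software was stated in the sources read. Of 35556 probesets, 21789 had 1 gene symbol. Each gene was taken from its probeset of highest mean level, which gave 19938 genes, of which 19856 matched RefSeq (GRCm38.p6).

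KC-DTR and littermate em-KCs were compared in a fit of 2 groups, and the other comparisons were made in a fit of 4 conditions, with limma 3.58.1 in R 4.3.3 (two-sided, Benjamini-Hochberg over all genes, threshold 0.05). The fits were tested on simulated data with 200 changed genes. Named were the 5 genes of smallest p in each direction of a comparison, up to 2 members of largest difference per list, and Clec4f, Cd207, Hbegf, Cd9, Eef2, sort antigens and sex-linked genes. Further genes were picked once their values were known. Arrays, the 29 gene lists and tests were chosen with earlier results of these data known. Lists were described, not tested. Alternatives changed the probeset, dim-gene filter, normalization, variance model, weights, covariates and test, blocked on the replicate number, or left out each array.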

Additional observations from a re-analysis of the deposited data

Results flagged for a closer look

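In 3 of 100 genes and list means examined, 1 of the 5 littermate arrays lay far from the other 4, and chance alone sets such a value apart in about 1 in 20 groups. Asns, the asparagine synthetase gene of the amino acid stress response, was 7.31 in littermate day 30 replicate 1, where the next highest littermate was 4.35, and KC-DTR em-KCs were at 4.35 to 5.07. Cxcr2 was 4.90 in the littermate without DT, against 4.17 in the next highest. Jchain, a gene of plasma cells, was 4.36 in littermate day 30 replicate 2, against 3.81.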

How the results depend on the processing

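The counts of called genes stayed at 0 under the alternatives run, with these exceptions. Between KC-DTR and littermate em-KCs 1 gene, Mmp12, passed with the mean of immediate-early genes as a covariate, and the methods' t-test gave 1499 genes before adjustment. Between day 30 and day 15 the count was 792 by the methods' t-test before adjustment and 0 to 3 when 1 array was left out, the 3 being Sh3bp1, Ifi208 and Asns without littermate day 30 replicate 2. Those 3 genes stood at 5.27, 5.34 and 7.31 in day 30 replicate 1, which was then the lone day 30 array. With the replicate number as a replicate block 1 gene, Cd209f, passed between the days (limma adjusted p = 0.0197), and the counts of the other comparisons stayed at 0. Over the 2991 most variable genes same-numbered arrays did not deviate together (correlations of -0.12 to 0.02). Such a correlation cannot exclude a shared deviation in single genes such as Cd209f. Whether same-numbered arrays share more than a number was not tested. The gap in distance ran from 0.320 to 1.52 when 1 array was left out, the highest without littermate day 30 replicate 1. The share of genes within 1.5-fold ran from 89.6% to 94.1%. Of 694 alternative values for the 41 results on genes named by smallest p in any comparison, 0 changed sign and 1 passed. Of 1238 for the 57 results on other named genes, 11 changed sign and 0 passed. Among them the difference of Hbegf was -0.01 without KC-DTR em-KC replicate 1, and that of Cd9 was -0.08 without KC-DTR em-KC replicate 2. The covariates from the endothelium list were chosen after seeing the data. Leaving out the untreated littermate left no comparison with it. The cause of these changes was not tested, and the number of arrays, 3 and 5, limits the precision.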

Other observations

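Small nucleolar RNAs, a group chosen after its values were seen, measured higher in KC-DTR em-KCs for 34 of 53, and none passed. Among all 19938 genes, 8853 measured higher. Of the 53, 8 were higher and 0 lower at an unadjusted p under 0.05, against 2.87% and 4.87% of all genes. On every KC-DTR array 4 lay above all littermates, against 1.91% of all genes. The median difference was 0.15, against -0.02 over all genes. Snora75 and Snord82, both encoded in the nucleolin gene, differed by 0.74 and 0.93 (limma adjusted p = 0.132 and 0.428). Snord82 was 7.81 to 8.16 in KC-DTR em-KCs, 7.81 in littermate day 30 replicate 1 and 6.67 to 7.19 in the other littermates, so 1 littermate was level with the lowest KC-DTR array. The mean over the 53 was 5.89 to 6.08 in KC-DTR em-KCs and 5.65 to 6.01 in littermates, and the groups overlapped. Within littermates, at the same unadjusted p, 4 of the 53 were higher and 4 lower at day 30 than at day 15. The shares over all genes were 1.7% and 2.09%. After DT, 1 of the 53 was higher and 2 were lower than without it, against 1.98% and 2.62% of all genes.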
